A study of Mus musculus with 18 samples.

Results

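Foxp4, Foxp1 and Foxp2 are the 3 autosomal genes of the mouse Foxp family, out of 21631 protein-coding genes of the gene table on the autosomes and chromosome X. Foxp4 was chosen on its lower H3K27me3 counts in Ezh2 KO than in WT tissue at both stages, so that difference is given below as a description with no test. Foxp1 and Foxp2 were added as its paralogs, not for their values. The members were measured through the deposited intervals that overlap each gene body with 2500 bp on each side (GRCm38 coordinates, counted from 1).

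H3K27me3, trimethylation of lysine 27 on histone H3, was profiled by CUT&Tag, in which an antibody guides a transposase that tags DNA close to the mark. The tissue was the medial ganglionic eminence (MGE), a ventral forebrain zone that produces cortical interneurons. Of 18 samples, the 12 WT and KO libraries were used, with 3 of each genotype at E12.5 and 3 at E15.5, and the 6 Het samples were not analysed here. KO tissue carries the genotype Nkx2.1-CreC/+;Ezh2;Ai9F/+ in the labels, and WT tissue is labelled WT with no alleles listed. Nkx2.1-Cre acts in cells of the Nkx2-1 lineage, so other cells of the dissected tissue keep Ezh2. The whole MGE was taken at E12.5, while at E15.5 the dissection followed tdTomato (Tom+) fluorescence, which is the product of the recombined Ai9 reporter. Each library is tagged as a biological replicate and may pool embryos of 1 genotype. In such bulk tissue, fewer cells with the mark and less of the mark per cell cannot be told apart.

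Foxp proteins are forkhead transcription factors that mostly repress their targets, and a zinc finger and leucine zipper let them pair with themselves and with each other. Foxp1 and Foxp2 are known for their roles in striatal and cortical neurons, Foxp2 also for speech and vocal learning, and Foxp4 for its expression in neural progenitors. Ezh2 is the catalytic subunit of Polycomb repressive complex 2 (PRC2), which places H3K27me3, often over CpG-rich promoters of developmental genes that are silent.

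Foxp4 lies on chromosome 17 at 47867133-47924632, on the minus strand with its annotated start site at 47924632. Foxp1 spans 597 kb of chromosome 6 (98925342-99522746, minus strand) and has 3 annotated start sites, at 99520993, 99266515 and 99028298 in the order of transcription. Foxp2 spans 541 kb of chromosome 6 (14901349-15441977). Promoters were available from RefSeq (GRCm38.p6, minus strand) for Foxp4 and the 3 Foxp1 starts, as 250 bases before to 50 after each start. The promoter at the Foxp4 start and those at the third and second Foxp1 starts are shown because they were called in most, some and none of the libraries. CpG dinucleotides are in capitals.
Foxp4 (chr17:47924583-47924882): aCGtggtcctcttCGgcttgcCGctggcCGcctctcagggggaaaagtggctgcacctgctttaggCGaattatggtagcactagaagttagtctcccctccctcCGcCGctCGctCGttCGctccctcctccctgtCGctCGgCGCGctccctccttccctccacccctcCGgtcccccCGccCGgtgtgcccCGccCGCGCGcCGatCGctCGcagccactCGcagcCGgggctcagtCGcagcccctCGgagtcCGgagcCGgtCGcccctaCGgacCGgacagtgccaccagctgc
Foxp1, the third start site (chr6:99028249-99028548): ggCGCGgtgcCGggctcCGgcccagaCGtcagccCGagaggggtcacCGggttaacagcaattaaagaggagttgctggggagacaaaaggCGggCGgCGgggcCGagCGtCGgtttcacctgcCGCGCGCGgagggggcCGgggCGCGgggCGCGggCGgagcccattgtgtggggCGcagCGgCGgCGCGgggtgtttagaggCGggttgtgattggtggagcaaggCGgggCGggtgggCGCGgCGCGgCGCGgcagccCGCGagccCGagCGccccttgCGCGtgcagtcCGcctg
Foxp1, the second start site (chr6:99266466-99266765): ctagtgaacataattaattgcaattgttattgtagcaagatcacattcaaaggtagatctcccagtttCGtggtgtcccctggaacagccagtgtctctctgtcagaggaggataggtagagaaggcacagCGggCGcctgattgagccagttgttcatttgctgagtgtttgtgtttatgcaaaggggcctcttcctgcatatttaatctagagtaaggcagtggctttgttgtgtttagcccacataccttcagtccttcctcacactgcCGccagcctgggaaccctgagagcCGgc

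The Foxp4 promoter holds 33 CpG, more than 91.2% of 31396 autosomal promoters of the same length, and an interval reached it in 11 of 12 libraries, all but E12.5 KO replicate 2. The promoter at the third Foxp1 start holds 44 CpG, more than 97.7% of promoters, and was reached in 8 libraries (3 E12.5 WT, 1 E12.5 KO, 2 E15.5 WT and 2 E15.5 KO). The promoter at the first Foxp1 start, chr6:99520944-99521243, has 13 CpG and was reached in 3 libraries. The promoter at the second has 5 CpG and was reached in none. The 2 member promoters called in most libraries thus held the most CpG. Over all autosomal promoters, 6.33% had an interval in every library, with a median of 19 CpG, and 76.0% had one in no library, with a median of 5 CpG. The forkhead motif TGTTTAC, or GTAAACA on the other strand, is in none of the 4 member promoters and in 3.71% of all autosomal promoters.

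The lists held 5008 to 13289 intervals and 573838 to 6846250 counts. Depth is the mean count per 200 bp window recovered from the deposited scores, and it was 0.117, 0.698 and 0.481 in E12.5 WT replicates 1 to 3, and 0.212, 0.272 and 0.243 in E12.5 KO. At E15.5 it was 0.0751, 0.129 and 0.15 in WT and 0.179, 0.216 and 0.346 in KO, so every KO library was deeper than every WT library at that stage. A normalised count below is a count rescaled to a common depth of 0.26 per window, the mean over the 12 libraries. Ezh2 had no interval in any library, so the lists do not check the deletion itself. Chromosome X held 18.1% to 24.5% of covered bases in the 3 E12.5 KO libraries and 20.9% in E12.5 WT replicate 3, against 0.874% to 5.33% in the other 8, which sets those 4 libraries apart. The members and all regions fitted here are autosomal. The MGE marker list, 10 genes such as Nkx2-1, Lhx6 and Dlx2, had an interval in every library for 9 genes, the dorsal pallium list for 8 of 9, and the hindbrain and spinal cord list for 5 of 5. Presence of the mark at these genes therefore did not separate tissues. Of 4 microglia markers, 3 had no interval in any library.

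Over Foxp4, H3K27me3 formed a domain that began just upstream of the start site and ran over the first part of the gene. In all 3 E12.5 WT libraries it covered an unbroken 26.0 kb, from 3.2 kb before to 22.8 kb after the start. The longest Foxp4 interval was 26.0, 31.4 and 30.8 kb in E12.5 WT replicates 1 to 3, and 7.4, 5.6 and 4.8 kb in E12.5 KO. At E15.5 it was 24.0, 35.2 and 32.8 kb in WT and 25.2, 26.0 and 23.0 kb in KO. A single long domain was thus present in 9 of the 12 libraries and was broken into short pieces in the 3 E12.5 KO libraries.

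**Figure D1:**
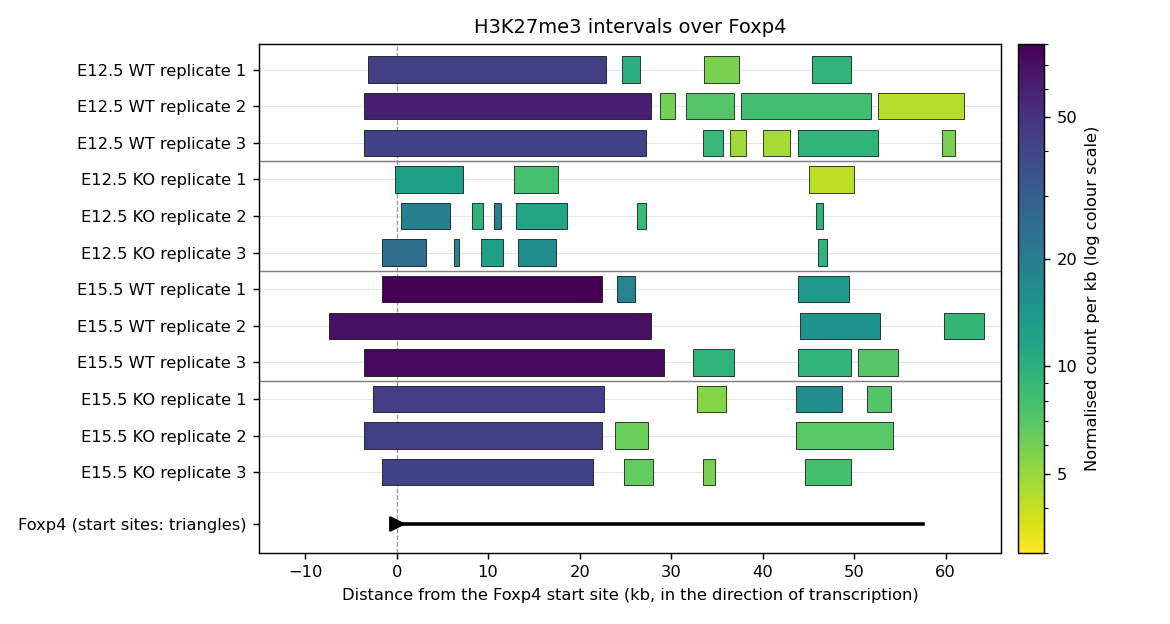
Deposited H3K27me3 intervals over Foxp4 in each of the 12 libraries. The x axis is the distance in kb from the annotated start site in the direction of transcription, each bar is 1 interval, and its colour gives the normalised count per kb on a log scale; the E12.5 KO libraries hold short, pale intervals where the other 9 hold 1 long interval.

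What was left at E12.5 in KO lay in specific places. The bases called in all 3 E12.5 KO libraries formed 2 stretches of 2.8 kb (chr17:47921401-47924200, from 0.4 to 3.2 kb after the start) and 4.2 kb (chr17:47907201-47911400, from 13.2 to 17.4 kb after the start). These 7.0 kb were also the bases called in all 12 libraries. In E12.5 KO replicate 3 the piece over the start was the densest, with 24.5 normalised counts per kb over 4.8 kb, against 16.3 over the piece of 4.2 kb. In replicate 2 the 2 leading pieces had 19.4 and 11.6 normalised counts per kb. In replicate 1 they had 12.2 and 7.91. The piece nearest the start was thus denser than the inner one in each of the 3 E12.5 KO libraries. At E15.5 the bases shared by the 3 KO libraries were again 1 stretch, of 23.0 kb, from 1.6 kb before to 21.4 kb after the start, and E15.5 WT shared 24.0 kb from the same upstream edge.

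The whole domain, merged over the 12 libraries, spans 42.8 kb (chr17:47894201-47937000). At E12.5 its normalised counts were 1148, 1971 and 1312 in WT and 129, 205 and 226 in KO. At E15.5 they were 2100, 2481 and 2475 in WT and 1147, 1158 and 966 in KO. Every KO library was below every WT library of its stage. The raw counts behind these values at E12.5 were 518, 5298 and 2427 for WT and 105, 215 and 212 for KO. At E15.5 they were 607, 1235 and 1428 for WT and 788, 962 and 1285 for KO. E12.5 WT replicate 1, shallower than each E12.5 KO library, had a higher raw count than each of them. At E15.5 the raw counts of the genotypes overlapped and every KO library was deeper. The separation at E15.5 was thus seen only after scaling for depth.

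Group means at E12.5 were 1477 ± 436 for WT and 187 ± 51.5 for KO (SD, n = 3 each), a WT to KO ratio of 7.9. At E15.5 they were 2352 ± 219 for WT and 1091 ± 108 for KO (SD, n = 3 each), a ratio of 2.16. By mean the order was E15.5 WT, E12.5 WT, E15.5 KO and E12.5 KO, and only E12.5 WT and E15.5 KO overlapped. Across the autosomal regions called in every E12.5 WT and KO library, the domain ranked 6 of 3243 from the lowest, with a log2 change of -2.96. The median of all regions was -0.56 with this scaling and -0.04 with TMM factors (trimmed mean of M values), which gave -2.43 for the domain. At E15.5 it ranked 19 of 2781, with a log2 change of -1.11 against a median of -0.02. These 2 changes chose the gene and carry no test. For scale, the edgeR quasi-likelihood test at an adjusted p of 0.05 called 10.4% of regions lower and 0.339% higher in KO at E12.5, and every KO library was below every WT library in 33.0% of regions. The split of these E12.5 calls depended on the scaling: 337 were lower and 11 higher as given, against 143 and 94 with TMM factors and 143 and 146 with DESeq2. At E15.5 the shares were 1.73% lower, 3.16% higher and 8.52% with no overlap in the lower direction.

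**Figure D2:**
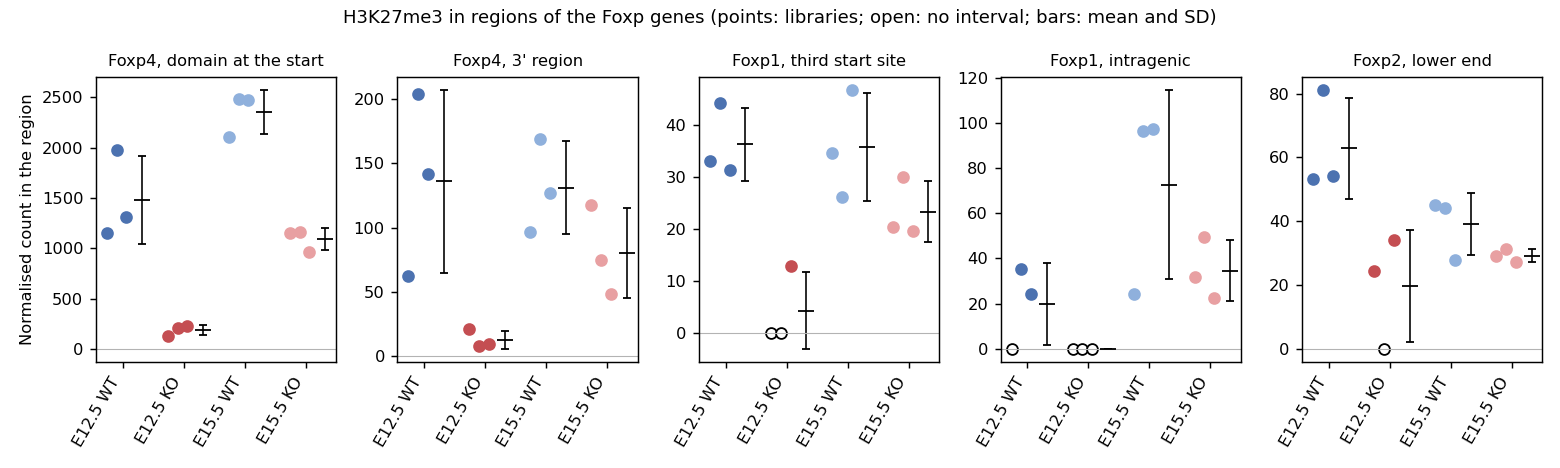
Normalised counts in 5 regions of Foxp4, Foxp1 and Foxp2 by stage and genotype, 1 point per library, with the mean and SD of 3 libraries as bars and open circles where a library has no interval. Each panel has its own axis; the Foxp4 domain lies at 129 to 226 in E12.5 KO and at 966 or more in the other 9 libraries.

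Both the length and the density of the domain differed. At E12.5 intervals covered 34.1 ± 5.83 kb of it in WT and 12.7 ± 1.1 kb in KO (SD, n = 3 each). At E15.5 they covered 34.2 ± 7.12 kb in WT and 28.7 ± 2.16 kb in KO (SD, n = 3 each). Within the covered bases the density was 41.0, 49.8 and 37.7 normalised counts per kb in E12.5 WT and 10.5, 14.7 and 18.9 in E12.5 KO. At E15.5 it was 80.8, 64.0 and 65.5 in WT and 38.0, 39.1 and 36.9 in KO. The WT to KO ratio of mean densities was 2.91 at E12.5 and 1.84 at E15.5. Covered length overlapped between the genotypes at E15.5 and density did not. Reads in the gaps between called intervals are not in the lists, so E12.5 KO sums leave out whatever lay there.

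**Figure D3:**
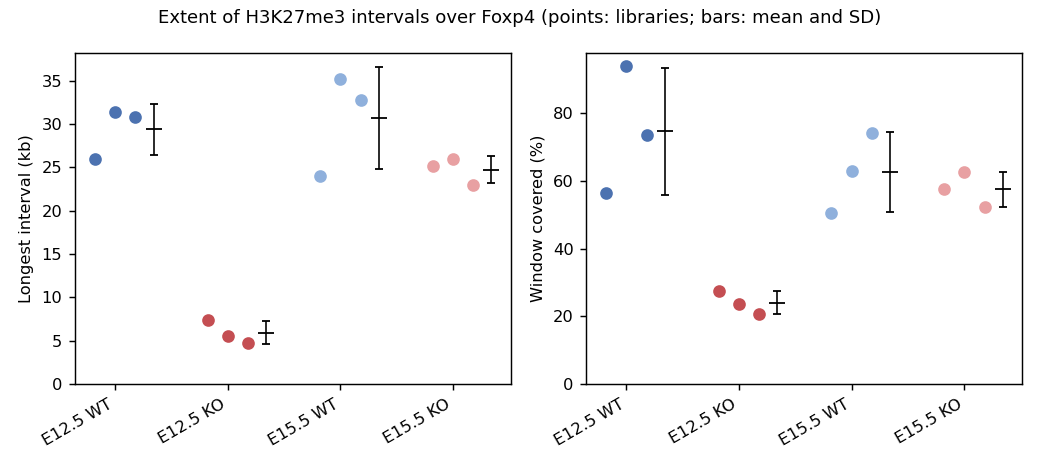
Longest Foxp4 interval in kb (left) and share of the Foxp4 window, the gene body with 2500 bp on each side, that intervals covered in percent (right), 1 point per library with the mean and SD of 3. The E12.5 KO libraries have 4.8 to 7.4 kb and 20.8% to 27.5%, below the other 9 libraries in both panels.

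A second, weaker Foxp4 region lay in the 3' part of the gene (chr17:47860401-47893000). Its normalised counts were 62.0, 204 and 142 in E12.5 WT and 20.8, 7.63 and 9.62 in E12.5 KO. At E15.5 they were 96.9, 169 and 127 in WT and 118, 74.7 and 48.1 in KO. The genotypes did not overlap at E12.5, with a WT to KO ratio of means of 10.7, and overlapped at E15.5, with a ratio of 1.63. In E12.5 KO these values rest on 17, 8 and 9 counts. Without E12.5 WT replicate 2, the deepest library, the log2 change at E12.5 was -2.36 in place of -3.21. Density in the 3' region ran from 4.16 to 12.8 normalised counts per kb, with the genotypes overlapping at each stage, while covered length ran from 0.8 kb in E12.5 KO replicate 2 to 29.8 kb in E12.5 WT replicate 2.

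**Figure D4:**
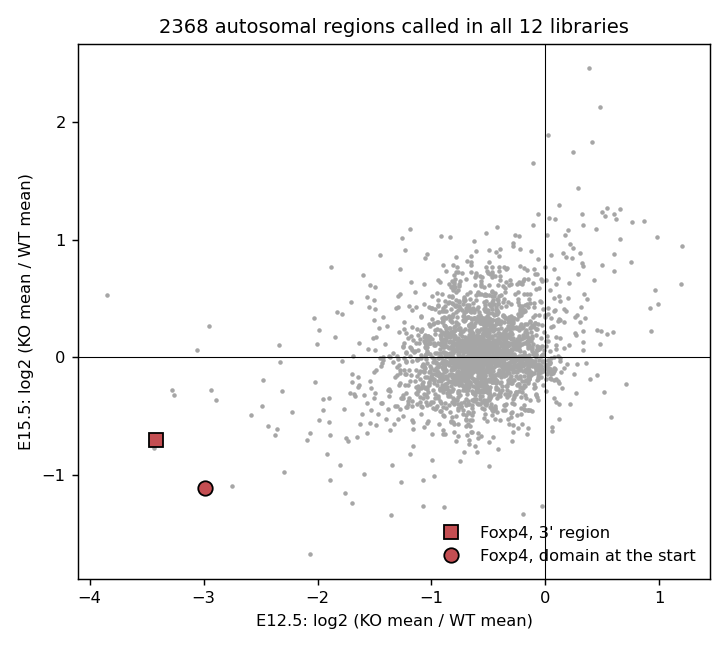
Log2 ratio of the KO mean to the WT mean of normalised counts at E12.5 (x axis) and E15.5 (y axis) for the 2368 autosomal regions called in all 12 libraries (grey), with the 2 Foxp4 regions in red. The domain at the start lies at -2.98 and -1.11 and the 3' region at -3.42 and -0.70, both in the lower left; Foxp4 was chosen for this position.

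Between the stages, contrasts that did not choose the gene, the Foxp4 domain was higher at E15.5 in both genotypes. The same libraries entered the contrasts that did choose it. In WT the E15.5 mean was 1.59 times the E12.5 mean, and all 3 E15.5 libraries were above every E12.5 library (log2 change 0.67). The WT values of both stages are part of the differences that chose the gene, so this change is given without a test. Over the alternatives this change ran from 0.52 to 1.27. With this scaling most regions called in that fit were lower instead: 43.9% of 2570 regions were called lower at E15.5 in WT and 3.77% higher, 51.3% had every E15.5 library below and 5.33% above every E12.5 library, and the median was -0.59, or -0.09 with TMM factors. The balance of calls moved with the scaling, from 1128 lower and 97 higher to 570 and 417 with TMM factors and 684 and 223 with total counts. With DESeq2 it turned, to 421 lower and 476 higher. In KO the E15.5 mean over the 12-library domain was 5.83 times the E12.5 mean, with every E15.5 library above every E12.5 library. In the KO fit, whose regions were merged over the 6 KO libraries, the log2 change was 2.53, ranging from 2.33 to 2.74 over the alternatives. The low E12.5 KO values that chose the gene are the baseline of this contrast, so it is given as a description with no test. For all regions of that fit, the edgeR test called 7.61% of 3154 lower and 6.18% higher, 12.7% had every E15.5 library above every E12.5 library, and the median was -0.08. The domain stood 3135 of 3154 from the lowest.

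In KO the 3' region of Foxp4 was also higher at E15.5 in every library than in any at E12.5, with a log2 change of 2.5, given without a test for the same reason. In WT its log2 change was -0.08 (also without a test), with overlapping groups. The sign depended on the scaling, and the change was 0.43 with TMM factors. Whether the stage change differs between the genotypes was not tested, because that difference follows from the contrasts that chose Foxp4. The whole-MGE dissection at E12.5 and the Tom+ dissection at E15.5 cannot be told apart from stage.

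Foxp1, which regulates striatal projection neuron and cortical neuron development, had far less of the mark for its length. Intervals covered 0.365%, 1.79% and 1.63% of its window in E12.5 WT and 0%, 0% and 0.299% in E12.5 KO. At E15.5 they covered 0.465%, 1.66% and 2.03% in WT and 2.12%, 2.16% and 0.963% in KO. For comparison, intervals covered 20.8% of the Foxp4 window in the lowest library, E12.5 KO replicate 3. Foxp1 intervals fell into 6 regions, 3 of them in a single library each.

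The most often called Foxp1 region surrounded the third start site (chr6:99024601-99031800, 10 of 12 libraries). Its normalised counts were 33.2, 44.3 and 31.4 in E12.5 WT, while in E12.5 KO replicates 1 and 2 had no interval and replicate 3 had 12.8. At E15.5 they were 34.6, 26.1 and 46.8 in WT and 20.4, 30.1 and 19.6 in KO. Among the libraries with an interval here, E12.5 KO replicate 3 had the lowest value, and the uncalled libraries give no level. The genotypes overlapped at E15.5. There the log2 change was -0.64 (SE 0.36, edgeR adjusted p = 0.409), and between the stages in WT it was -0.03 (SE 0.3, edgeR adjusted p = 0.948), which took the sign of the scaling (0.50 with TMM factors). These values rest on 10 to 119 counts per library.

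**Figure D5:**
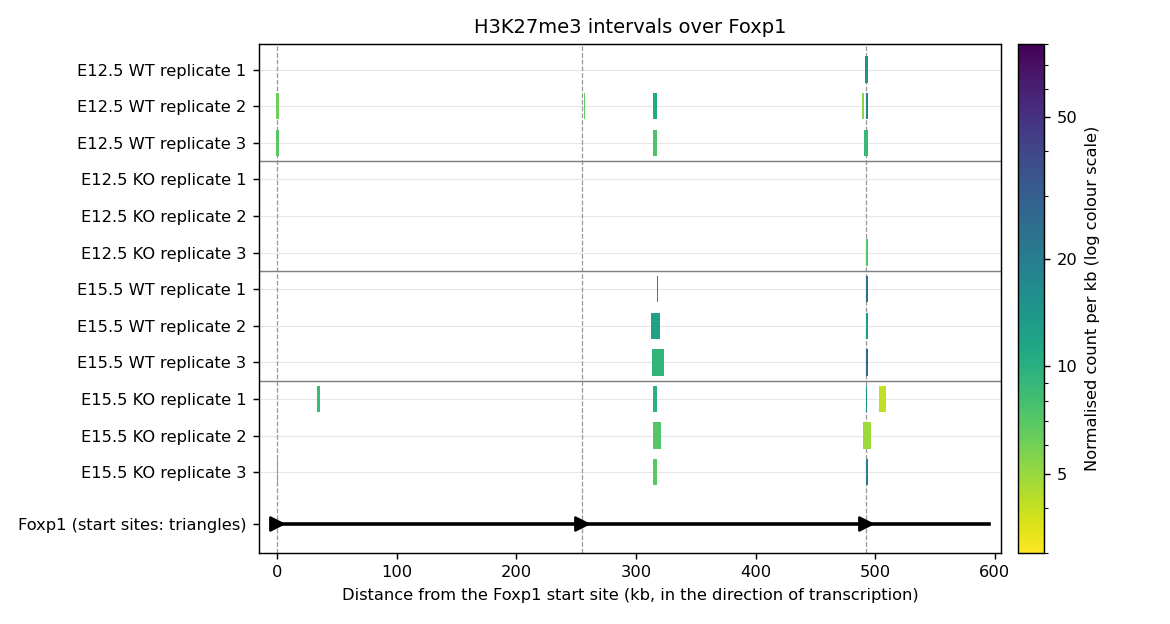
Deposited H3K27me3 intervals over Foxp1 in the 12 libraries, against the distance in kb from its first annotated start site in the direction of transcription, with triangles and dashed lines at the 3 start sites. Colour gives the normalised count per kb on a log scale; short intervals recur at the third start and at 1 place between the second and the third, and only 1 interval is seen in E12.5 KO.

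An intragenic Foxp1 region between the second and the third start (chr6:99197401-99208600) was called in 8 libraries. It was not called in E12.5 WT replicate 1 or in any E12.5 KO library, and had 35.3 and 24.3 normalised counts in E12.5 WT replicates 2 and 3. How many of all regions were likewise called in more E12.5 WT than KO libraries was not counted. These calls, like those at the third start, are therefore not set apart from other regions. At E15.5 the intragenic region had 24.2, 96.4 and 97.1 in WT and 32.0, 49.4 and 22.6 in KO. E15.5 WT replicate 1, the shallowest of the 12 libraries with 7 counts here, overlapped the KO libraries, and the other 2 WT libraries were above all of them. The E15.5 log2 change was -1.16 (SE 0.42, edgeR adjusted p = 0.161). With that library left out it was -1.5 (edgeR adjusted p = 0.0199), so this 1 library decides the call. The first Foxp1 start (chr6:99519201-99522400) had an interval in E12.5 WT replicates 2 and 3, the 2 deepest libraries, and in E15.5 KO replicate 3, the deepest at its stage.

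Foxp2, the paralog tied to vocal learning, carried 1 short region at the end of the gene with the lower coordinates (chr6:14897801-14903800), called in 11 libraries. Its normalised counts were 53.2, 81.1 and 54.1 in E12.5 WT, and 24.5 and 34.2 in E12.5 KO replicates 1 and 3, with no interval in replicate 2. At E15.5 they were 45.0, 44.2 and 27.7 in WT and 29.1, 31.3 and 27.1 in KO. With the uncalled replicate 2 taken as 0, all E12.5 KO libraries were below all E12.5 WT libraries. The same held in 33.0% of the regions called in every WT and KO library of that stage, a set without this region. The genotypes overlapped at E15.5, where the log2 change was -0.39 (SE 0.33, edgeR adjusted p = 0.631). By mean the order was E12.5 WT at 62.8 ± 15.9, E15.5 WT at 39.0 ± 9.74, E15.5 KO at 29.2 ± 2.12 and E12.5 KO at 19.6 ± 17.6 (SD, n = 3 each). In WT all 3 E15.5 libraries were below every E12.5 library, as in 51.3% of all regions of that fit, and the log2 change of -0.74 (SE 0.33) did not pass the test (edgeR adjusted p = 0.0739). Relative to the median of all regions in that fit it was -0.15. Across the libraries where each was called, density was 5.57 to 14.6 normalised counts per kb at Foxp2 and 4.86 to 26.0 at the third Foxp1 start, and was 10.5 to 80.8 in the Foxp4 domain.

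The regions of Foxp1 and Foxp2 were not called in every E12.5 KO library, so the fits of regions called in every library do not cover them at E12.5 or over both stages. When regions called in at least 2 of 3 libraries of each group were used, the Foxp2 region had a log2 change of -1.7 at E12.5 (SE 0.9, edgeR adjusted p = 0.34), where the median of 4977 regions was -0.54. Over both stages it was -1.07 (SE 0.6, edgeR adjusted p = 0.375), and the difference between the stages did not pass the test (log2 1.29, edgeR adjusted p = 0.496). In addition 1 value per library, the log2 of all normalised counts in the gene window, was compared between genotypes with labels permuted within each stage (exact two-sided test, 400 assignments). A library without an interval was set to log2 of 1. The same test was run on 8012 autosomal genes with an interval in at least 1 library, and 6.27% of them were lower in KO at an unadjusted p below 0.05, with a median difference of -0.27. For Foxp1 the mean difference was -2.62 on the log2 scale (exact permutation p = 0.02), made up of -4.78 at E12.5 and -0.45 at E15.5. For Foxp2 it was -1.55 (exact permutation p = 0.015), made up of -2.71 and -0.39. Neither passed once adjusted over all 8012 genes (exact permutation, adjusted p = 0.512 and 0.489). The size rests on the value given to uncalled libraries: set to the lowest interval count of the library, an alternative chosen after seeing the data, the differences were -1.59 and -1.13. Without E12.5 KO replicate 2, the library with no Foxp2 interval, the Foxp2 difference was -0.74. With no flank on the gene body it was -4.83. There the intervals of E12.5 KO replicate 3 and of every E15.5 KO library end before the gene, at 14901349, and those libraries were set to log2 of 1. Adjusted over the 2 genes alone, p was 0.02 for each (exact permutation). The call at 0.05 was lost without any 1 of the E12.5 WT libraries (exact permutation, adjusted p from 0.11 to 0.125) and with intervals at or above the median score (exact permutation, 0.14 each). It was also lost with the replicate block (exact sign-flip, 0.0938 for Foxp1 and 0.0625 for Foxp2). The sign-flip test has fewer assignments and cannot reach as low a p. Foxp2 was lower in KO in every same-numbered pair, so its p was the lowest that the sign-flip test can give. For covered bases, the share of the window differed by -0.38 percentage points for Foxp2 (exact permutation p = 0.01) and by -0.40 for Foxp1 (exact permutation p = 0.435), where 0.724% of the 8012 genes were lower at an unadjusted p below 0.05 and the median was -0.44. Neither passed when adjusted over those genes (exact permutation, adjusted p = 1.0 each). Over the 2 genes alone the Foxp2 value was 0.02, a call lost without E12.5 WT replicate 2 or 3, with the replicate block (exact sign-flip, 0.125) and with the median score (exact permutation, 0.13), and with no flank the difference was -0.21.

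The nearest genes with an interval of their own are given for comparison. Mdfi, which encodes an inhibitor of myogenic transcription factors and lies 32.4 kb from Foxp4, had 397 ± 59.5 normalised counts in E12.5 WT and 182 ± 32.9 in E12.5 KO (SD, n = 3 each). At E15.5 it had 229 ± 20.3 in WT and 218 ± 22.2 in KO. On the other side, 112 kb away, 1700122O11Rik had means of 50.1 and 11.5 at E12.5 and of 28.0 and 35.0 at E15.5, in WT and KO. Eif4e3, a cap-binding translation factor gene 99.1 kb from Foxp1, had means of 109 and 69.8 at E12.5 and of 129 and 82.9 at E15.5. Mdfic, 279 kb from Foxp2, had an interval in 3 E12.5 WT and 2 E15.5 WT libraries and in no KO library. At the other ends of Foxp1 and Foxp2 no gene within 500 kb had its own interval.

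Among the 2368 regions called in all 12 libraries, the 5 whose log2 normalised counts followed the Foxp4 domain most closely over the 12 libraries are given as a description. The libraries share depth scaling and the genotype difference that chose Foxp4. The region at Bdnf, a neurotrophin gene (chr2:109669601-109708200), had a Pearson r of 0.98, with WT and KO means of 2113 and 750 at E12.5 and of 2711 and 2193 at E15.5. A region in Gli2, a transcription factor gene of Hedgehog signalling (chr1:118966201-119004600), had an r of 0.97 and means of 438, 40.5, 440 and 259 in the same order. A pair of regions in Lrmda (chr14:22732801-22764400 and chr14:22001601-22058800) and 1 in Iqch (chr9:63547201-63575600) also had an r of 0.97. In each of the 5 the E12.5 KO mean was the lowest of the 4 groups. Over all regions the median r with the Foxp4 domain was 0.26 and the 95th percentile 0.87.

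Lists of genes tied to Foxp proteins were also examined, and their calls depended on the scaling. Of 16 genes for corepressor partners, such as the CtBP and NuRD subunits through which Foxp proteins repress, 9 had no interval in any library and 0 had one in every library. The 3 that could be tested at E15.5 gave no call, with a median log2 change of 0.25 against -0.02 for all regions, and the largest was Ctbp2 at 1.36 (edgeR adjusted p = 0.0646), which passed with TMM factors, total counts or DESeq2. Of 25 genes reported as Foxp targets or dependent genes in the nervous system, 15 had an interval in every library and 3, Mef2c, Efnb3 and Cdh2, in none. At E12.5, 18 of these could be tested: 1 fell in KO, the transcription factor gene Ebf1 (log2 change -0.88, edgeR adjusted p = 0.000639), and 1 rose, the ephrin receptor gene Ephb1 (log2 change 1.11, edgeR adjusted p = 0.0413). Among all regions 10.4% were called lower and 0.339% higher. The median of the targets was -0.32 against -0.56 for all regions. With TMM factors Ebf1 was no longer called, Ephb1 was, and the median was 0.20 against -0.04. Total counts gave 1 lower, Ebf1, and 3 higher, Ephb1, Dlx5 and Dlx6, and DESeq2 gave these 3 higher and 0 lower. At E15.5, 0 of 15 were called, with a median of 0.01, where 1.73% of all regions were called lower and 3.16% higher. There TMM factors called Dab1 higher, total counts called Dab1 higher and Pax6 lower, and DESeq2 called 0.

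Between the stages in WT, 6 of 15 reported targets fell and 0 rose, with a median log2 change of -0.17 against -0.59 for all regions. This share is about that of all regions, of which 43.9% were called lower and 3.77% higher. The 6 were the scaffold gene Disc1, the progenitor genes Sox2 and Hes1, Ebf1, and Dlx5 with Dlx6, which share 1 region and are interneuron transcription factors (edgeR adjusted p = 4.77e-05). With TMM factors 0 fell and 5 rose (Dab1, Nrn1, Tbr1, Isl1 and Cck), total counts gave 2 lower (Dlx5 and Dlx6) and 3 higher (Nrn1, Tbr1 and Isl1), and DESeq2 gave 0 lower and 6 higher, so the direction of this list in WT turns with the scaling. In KO 2 of 18 fell, again Dlx5 and Dlx6 in their shared region (log2 change -1.11, edgeR adjusted p = 3.11e-06), and 1 rose, Dab1 of the reelin pathway (log2 change 1.29, edgeR adjusted p = 0.000919). Among all regions 7.61% were called lower and 6.18% higher. These 3 calls were also made with TMM factors, total counts and DESeq2. TMM factors gave 3 lower, Sox2 in addition, and 4 higher, total counts 2 and 3, and DESeq2 3 and 3. The Foxp4 domain was higher at E15.5 in both of these contrasts with each scaling. Of the marker lists, the summed level of the 10 MGE genes was 16200 to 17900 normalised counts for WT and 16200 to 24000 for KO at E12.5, and 10300 to 13100 for WT and 13300 to 16900 for KO at E15.5. That of the 9 dorsal pallium genes was 38300 to 46100 and 27700 to 36200 at E12.5, and 36100 to 37700 and 30000 to 36300 at E15.5. That of the 5 vascular genes, 3 with an interval, was 7700 to 8830 and 5990 to 7870 at E12.5, and 7010 to 7470 and 6750 to 8370 at E15.5. That of the 5 hindbrain and spinal cord genes was 171000 to 236000 and 180000 to 244000 at E12.5. At E15.5 it was 175000 to 187000 for WT and 132000 to 172000 for KO. Beside the lower Foxp4 level, the MGE sums in KO were thus above every WT sum at E15.5. The KO sums were below every WT sum for the dorsal pallium list at E12.5 and for the hindbrain and spinal cord list at E15.5. Among all regions fitted, every KO library was above every WT library in 13.2% at E15.5, and below in 33.0% at E12.5 and 8.52% at E15.5. Gene by gene, 1 of 9 MGE genes tested was called higher at E15.5, and 2 of 8 dorsal pallium genes lower at E12.5. In addition 1 of 10 MGE genes was called higher at E12.5, and 1 of 8 dorsal pallium genes lower at E15.5. Of the 5 hindbrain and spinal cord genes, 0 were called between the genotypes at either stage. The sums were not computed with the other scalings. The median log2 change of the dorsal pallium list at E12.5 was -0.36, where that of all regions was -0.56, or -0.04 with TMM factors. The part of these differences in the Foxp4 result was not tested.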

How the data were processed

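H3K27me3 CUT&Tag intervals of 12 libraries were used. The counts per interval are whole numbers as the authors deposited them, not normalised, and the score per interval is likewise as deposited. Per the submitters' processing notes, the tools include cutadapt, Bowtie2, SAMtools, Picard, deepTools and SICER and the builds are GRCm38 and mm10; roles, versions and thresholds are not given in the sources used here, nor is whether counts are reads or fragments. Intervals were called per library in 200 bp windows, with gaps of at least 800 bp, and uncalled sites have no count. The score of single-window intervals matched a Poisson probability (negative natural log) with a single mean for each library (largest misfit 0.00407), and this mean served as depth, taken as proportional to total reads.

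Groups came from the labels. Autosomal intervals sharing at least 1 bp were merged, counts were summed per region that all compared libraries had called, and edgeR 4.0.16 was run on the sums (quasi-likelihood, Benjamini-Hochberg over all regions, threshold 0.05) in R 4.3.3, with DESeq2 1.42.0 as an alternative. The SE is the change over the square root of F. Gene windows were compared by exact two-sided permutation within stages, 400 assignments, for which the smallest p is 0.005, and the same test was run on all autosomal genes with an interval. The fits were also run on simulated counts for regions already called, which does not test the interval calling or the choice of scaling. Other tools were scipy 1.17.1, numpy 2.4.6, matplotlib 3.10.9, pandas 2.3.3 and Python 3.11.15. Alternatives were TMM factors, total counts, DESeq2, a mean count of 50, regions called in most libraries, regions of like covered length (within 1.5-fold), intervals at or above the median score, windows with no flank or 10000 bp, edge-clipped counts, the replicate block and leaving out each library. The 3 genes, lists and tests were chosen with earlier results of these data known. Genes named are the members, their nearest neighbours with an interval within 500 kb, the 5 regions most correlated with the Foxp4 domain, and called list genes. Ctbp2, the genes without any interval and those called only under another scaling were named after their values were seen. Symbols, positions and promoters are from RefSeq tables of GRCm38.p6, where Foxp2 had no promoter entry.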

Additional observations from a re-analysis of the deposited data

How the results depend on the processing

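The Foxp4 domain kept its direction in every fit and alternative that held it. Its KO against WT direction chose the gene and the alternatives reuse the same libraries, so this is no separate support. At E12.5 the log2 change of the domain was -2.43 with TMM factors and -2.37 with DESeq2. Under like covered length the domain had no value at E12.5, over both stages or in the KO stage contrast, because the region left the set. The numbers of regions called moved more. At E12.5, 348 became 75 for regions called in at least 2 of 3 libraries, 50 for like covered length, 640 with the replicate block, 215 for intervals at or above the median score, and 97 to 1563 on leaving out a library. At E15.5, 136 became 57, and 75 for like length, with 75 to 163 on leaving out a library. Over both stages, 158 became 285 with DESeq2 and 48 in the first of these settings, with 89 to 241 on leaving out a library. Between stages in WT, 1225 became 530 for like length and 758 to 1721 on leaving out a library. In KO, 435 became 815 with TMM factors, 749 with total counts, 754 with DESeq2, 196 for like length, 277 with the replicate block, 268 for the median score, and 246 to 691 on leaving out a library. TMM factors changed lower and higher calls from 337 and 11 to 143 and 94 at E12.5 (143 and 146 with DESeq2), 48 and 88 to 85 and 114 at E15.5, 139 and 19 to 116 and 113 over both stages, 1128 and 97 to 570 and 417 in WT (421 and 476 with DESeq2), and 240 and 195 to 410 and 405 in KO.

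For gene window counts, Foxp1 and Foxp2 gave -2.53 and -2.20 with the median score (exact permutation, p adjusted over the 2 genes = 0.14 each), and -2.62 and -1.55 with the replicate block (exact sign-flip, adjusted p = 0.0938 and 0.0625). Leaving out a library gave -3.23 to -2.31 and -2.01 to -0.74. Foxp2 covered bases gave -0.38 with the median score and with the replicate block (adjusted p = 0.13 and 0.125), and -0.48 to -0.29 on leaving out a library. The replicate block also took the WT stage change of the Foxp2 region past the threshold (edgeR adjusted p = 0.0424), as did leaving out E12.5 WT replicate 1 (0.0345); over its alternatives adjusted p ran up to 0.797. Deviations of same-numbered libraries correlated from -0.25 to 0.25, and 12 of 24 library and group pairs correlated best with their own number. These values do not settle whether replicate numbers pair the libraries. The causes of these changes were not tested. An uncalled site gives no upper limit on its counts.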
